A study of Mus musculus with 9 samples.

Results

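The S100 genes encode small calcium-binding proteins, and 8 of them were described here in CD11b+ cells of the mouse liver after acetaminophen (APAP): S100a8, S100a9, S100a4, S100a6, S100a10, S100a11, S100a1 and S100a13. They were chosen by name, out of 45777 genes in the deposited tables, and all 8 passed the filter on low values that 13820 genes passed. The study gave mice APAP by intraperitoneal injection, a common model of acute liver failure, and isolated CD11b+ cells from the liver 48 hours later for bulk RNA sequencing. Each of the 3 groups had 3 samples, and every animal had received APAP, the controls included. The PBS group got PBS only. The HEK-EV group got SIRP-EVs, which are extracellular vesicles, made by HEK cells (a line of human kidney origin), and the MSC-EV group got SIRP-EVs from MSC. Vesicles were given into a vein 8 hours after APAP. The labels spell out neither SIRP nor MSC, and give no strain, sex or age, so these are left as written. There was no group without APAP and none with vesicles lacking SIRP.

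Most S100 proteins are dimers whose paired EF-hand loops bind calcium, which exposes a surface that grips a partner protein; S100a10 is an exception that no longer binds calcium and holds its partner without it. S100a8 and S100a9 form calprotectin, which makes up a large part of the cytosolic protein of neutrophils and is also made by young monocytes, and which acts through receptors such as Tlr4 once released. S100a4 and S100a6 bind cytoskeletal and signalling proteins, while S100a10 and S100a11 bind annexins, proteins that attach to membranes. In injured liver the calprotectin genes are commonly used as signs of newly arrived neutrophils and monocytes.

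All 8 genes lie on chromosome 3 in 2 clusters. In the deposited coordinates (mm10), S100a1 (gene ID 20193) spans chr3:90511034-90514330 on the minus strand and S100a13 (20196) chr3:90514233-90524581 on the plus strand, so that they overlap by 98 bases at their starts. S100a4 (20198) spans chr3:90603770-90606045 and S100a6 (20200) chr3:90612894-90614414, both on the plus strand and 6.85 kb apart. S100a8 (20201) spans chr3:90669071-90670034 on the plus strand, and S100a9 (20202) spans chr3:90692630-90695721 on the minus strand, 22.6 kb further on. The second cluster holds S100a11 (20195) at chr3:93520235-93526288 and S100a10 (20194) at chr3:93554940-93564645, both on the plus strand, 28.7 kb apart. Whether reads were counted by strand is not given in the sources used here, so reads from the shared bases of S100a1 and S100a13 may have been assigned to either.

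The 250 bases before the start of S100a8, S100a9, S100a4 and S100a6 are shown. In each of these pairs the neighbours had closely similar patterns over the samples, and S100a4 and S100a6 carried the differences that passed the test. S100a10 and S100a11 had the smallest difference in pattern of all pairs and are not shown. The sequences are from RefSeq (GRCm38.p6), which had an entry for 7 of the 8 genes and none for S100a10. Each is written 5′ to 3′ on the strand of its gene, and capitals mark a match to a motif.
S100a8, chr3:90668821-90669070, plus strand: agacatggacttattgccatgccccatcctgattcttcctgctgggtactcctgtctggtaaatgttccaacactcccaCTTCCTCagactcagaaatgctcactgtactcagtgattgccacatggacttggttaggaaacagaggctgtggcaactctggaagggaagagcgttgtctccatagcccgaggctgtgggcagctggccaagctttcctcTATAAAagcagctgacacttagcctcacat
S100a9, chr3:90695722-90695971, minus strand: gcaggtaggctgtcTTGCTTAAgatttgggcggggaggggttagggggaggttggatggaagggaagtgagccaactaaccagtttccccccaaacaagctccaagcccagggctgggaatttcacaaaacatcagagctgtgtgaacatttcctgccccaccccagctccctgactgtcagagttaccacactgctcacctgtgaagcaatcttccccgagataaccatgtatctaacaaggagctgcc
S100a4, chr3:90603520-90603769, plus strand: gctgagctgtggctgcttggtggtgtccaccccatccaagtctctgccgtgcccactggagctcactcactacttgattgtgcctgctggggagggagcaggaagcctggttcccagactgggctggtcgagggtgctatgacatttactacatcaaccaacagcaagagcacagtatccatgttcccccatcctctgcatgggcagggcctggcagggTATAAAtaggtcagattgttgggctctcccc
S100a6, chr3:90612644-90612893, plus strand: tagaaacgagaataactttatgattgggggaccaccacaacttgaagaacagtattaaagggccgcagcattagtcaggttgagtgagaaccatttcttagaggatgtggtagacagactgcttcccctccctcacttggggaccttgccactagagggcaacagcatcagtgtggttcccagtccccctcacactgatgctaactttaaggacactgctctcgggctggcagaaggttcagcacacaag
Motifs were searched on both strands, and these matches are descriptions of the letters only. The TATA box, TATAAA, began 30 bases before the start of S100a8 and 31 bases before that of S100a4, and 12.4% of 32851 mouse promoters held it in the same window. A C/EBP motif, TTGCNNAA, began 236 bases before S100a9 (9.56% of promoters held one). The PU.1 motif GAGGAAG lay on the reverse strand 171 bases before S100a8 (10.6% of promoters). The AP-1 motif TGANTCA was in none of the sequences shown and was found in S100a11, 136 and 38 bases before its RefSeq start (6.75% of promoters). That start lies 261 bases inside the gene as the deposited table has it, so both matches fall within the deposited span of S100a11. For S100a13 the starts were 202 bases apart, and for the other 5 genes searched they were the same. S100a6 held none of these motifs in its window. The search was widened to the whole 300-base entry after these matches had been seen, because TATAAA in S100a9 begins at the first base of the annotated gene. In that wider window 3 of the 7 genes held TATAAA, against 13.6% of promoters, and S100a4 gained a PU.1 match at base 19 of the gene, against 13.6% of promoters.

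The cells carried the markers of the labelled type. Itgam, which encodes CD11b, was between 196.4 and 434.4 TPM (transcripts per 1000000) in the 9 samples, and Lyz2, a general myeloid gene, was between 13329 and 18741 TPM. Itgam was itself lower in the MSC-EV group, at 229 ± 29.6 TPM (SD, n = 3) against 330 ± 44.3 with PBS and 372 ± 54.1 with HEK-EV (limma log2 fold change -0.53, SE 0.134, adjusted p = 0.0553 against PBS; -0.70, adjusted p = 0.0257 against HEK-EV). Of the 8 general myeloid genes 7 were lower and 1 higher in MSC-EV than in PBS, with a median of -0.11. Ptprc, the pan-leukocyte gene CD45, fell (-0.46, adjusted p = 0.0271 against PBS; -0.53, adjusted p = 0.0207 against HEK-EV), and Cd68, a macrophage gene, was at 0.32 (adjusted p = 0.0513) against PBS and rose by 0.33 (adjusted p = 0.0443) against HEK-EV. Between 13130 and 13633 genes reached 1 TPM in a sample. Read counts were not used here. The ratio of coverage to FPKM, which grows with depth, was 5.28 to 6.32 with PBS, 6.25 to 6.47 with HEK-EV and 6.58 to 6.84 with MSC-EV, so the MSC-EV samples stood above all others. In bulk samples fewer cells of a type and less RNA per cell cannot be told apart. The labels do not say that samples came from separate animals, so p-values set group differences against the spread between these samples, not between known animals.

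The 8 genes made up 0.5% to 0.955% of all TPM in a sample. Since TPM is per length, levels can be ranked between genes. By mean TPM with PBS, S100a4 was 44th and S100a9 was 46th of all genes. S100a8 was 98th, S100a11 143rd, S100a6 232nd and S100a10 527th. S100a13 was 2054th and S100a1 3899th. S100a9 and S100a4 were thus near the top with PBS (2004 ± 675 and 2066 ± 444 TPM), and their means differed by less than either SD. With HEK-EV S100a9 ranked 23rd and S100a4 54th, and with MSC-EV they ranked 67th and 116th.

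**Figure D1:**
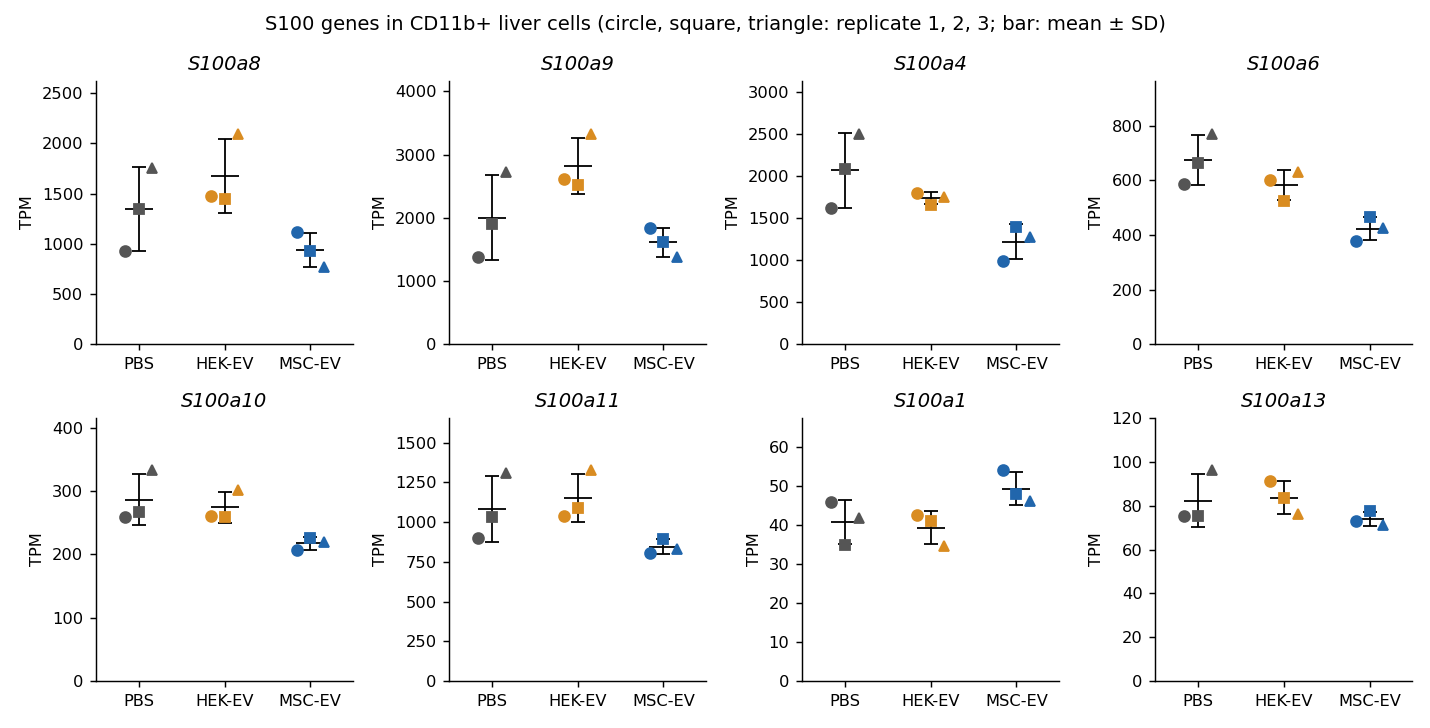
TPM (y axis, from 0) of the 8 S100 genes in each of the 9 samples, by group on the x axis, with the mean and SD as bars. The MSC-EV samples lie below all PBS and HEK-EV samples for S100a4, S100a6, S100a10 and S100a11, and above them for S100a1.

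MSC-EV against PBS asks how myeloid cells differ after MSC-derived vesicles. S100a4 fell by 40.7% and S100a6 fell by 36.9%, and no other member passed the test. In limma on log2(TPM + 1) with an adjusted p (Benjamini-Hochberg over 13820 genes) under 0.05, 2 of 8 members passed, both lower. Over all genes 5.11% passed in either direction and 3.25% were lower. The median log2 fold change of the 8 was -0.36, against 0.01 over all genes tested, with 7 members lower and 1 higher. The groups did not overlap for 4 members that were lower and 1 that was higher, against 14.9% and 11.2% of all genes. The unadjusted p was under 0.05 for 5 of the 8 members and for 23.0% of all genes.

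In HEK-EV against PBS, no member passed the test and no member had groups that did not overlap. Over all genes limma called 0% (495 genes had an unadjusted p under 0.05), and 7.81% had groups that did not overlap. Of the members 4 were higher and 4 lower, with a median of -0.01 against 0.028 over all genes, and 1 (S100a9) had an unadjusted p under 0.05.

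In MSC-EV against HEK-EV, which sets the vesicle sources side by side, S100a6 was the 1 member past the test and fell by 27.5%, where 5.91% of all genes passed and 4.4% were lower. Again 7 members were lower and 1 higher, with a median of -0.45 against -0.017 over all genes. The groups did not overlap for 6 members that were lower and 1 that was higher, against 17.5% and 12.6% of all genes. The 3 comparisons share samples pairwise, so they are not independent of each other.

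**Figure D2:**
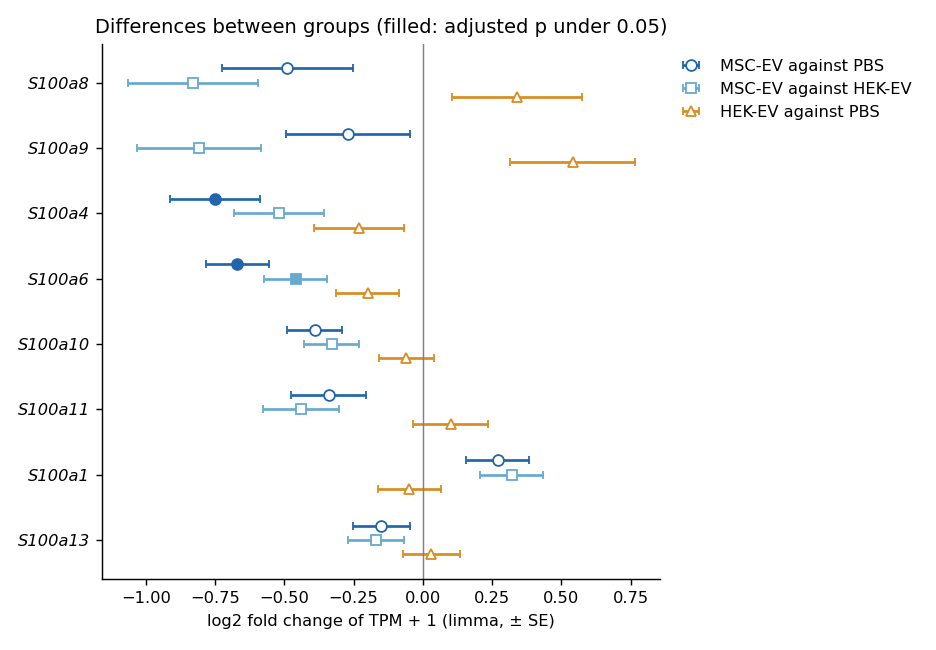
Log2 fold change of TPM + 1 (x axis, limma, ± SE) for the 8 genes (y axis) in the 3 comparisons. The filled symbols, with an adjusted p under 0.05, are S100a4 and S100a6 in MSC-EV against PBS and S100a6 in MSC-EV against HEK-EV.

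S100a8, a subunit of calprotectin, was at 929, 1350.4 and 1757 TPM in PBS samples 1 to 3, at 1475, 1449 and 2096 in the HEK-EV samples and at 1114, 927 and 770.3 in the MSC-EV samples. Its partner S100a9 was at 1382, 1907 and 2723 TPM with PBS, 2612, 2512 and 3330.3 with HEK-EV, and 1842, 1618 and 1372 with MSC-EV. For both genes PBS sample 1 lay inside the MSC-EV range and PBS sample 3 exceeded it, so that PBS and MSC-EV overlapped, whereas every MSC-EV sample was below every HEK-EV sample. For S100a8 the log2 fold change was -0.49 (SE 0.236, adjusted p = 0.254) in MSC-EV against PBS and -0.83 (SE 0.236, adjusted p = 0.0703) against HEK-EV. For S100a9 it was -0.27 (SE 0.224, adjusted p = 0.525) and -0.81 (SE 0.224, adjusted p = 0.0657). In HEK-EV against PBS S100a8 was 0.34 and S100a9 0.54 (adjusted p = 0.999 for each), and these moved to 0.10 and 0.29 without PBS 1 and to 0.03 and 0.21 with depth as a covariate. S100a8 was also at 0.17 without HEK-EV 3 and 0.56 without PBS 3. The log2 fold change against PBS moved with single PBS samples: for S100a8 it was -0.73 without PBS 1 and -0.27 without PBS 3, and for S100a9 -0.51 without PBS 1, -0.02 without PBS 3 and -0.16 without MSC-EV 3. With depth as a covariate it was -1.05 for S100a8 (adjusted p = 0.0681) and -0.85 for S100a9 (adjusted p = 0.0811), and with the acinar term, a term for pancreatic transcripts, -0.32 and -0.14. None of these limma tests passed, and the SD with PBS (414 and 675 TPM) was the widest of any group for these genes. Without PBS sample 1 both did pass in MSC-EV against HEK-EV (adjusted p = 0.0273 for S100a8 and 0.022 for S100a9), and S100a9 did so without PBS sample 3 as well (0.0339). PBS samples enter that comparison only through the shared estimate of spread, and with only the 6 samples compared the adjusted p was 0.0355 and 0.0204. Both also passed there with array quality weights (0.0365 and 0.0261) and with depth as a covariate (0.0209 and 0.0138). Of 20 alternatives there, 16 for S100a8 and 15 for S100a9 stayed short of the threshold. These included no filter (0.363 and 0.345), FPKM (0.113 and 0.116) and every fit without an HEK-EV or MSC-EV sample.

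S100a4, which binds non-muscle myosin and is abundant in recruited monocytes and macrophages, was at 1613, 2086 and 2499.9 TPM with PBS, at 1793, 1654 and 1753 with HEK-EV and at 993, 1392 and 1268 with MSC-EV. The highest MSC-EV sample was below the lowest sample of either other group. The log2 fold change was -0.75 (SE 0.162, adjusted p = 0.035) in MSC-EV against PBS and -0.52 (SE 0.162, adjusted p = 0.0887) in MSC-EV against HEK-EV. In HEK-EV against PBS it was -0.23 (adjusted p = 0.999). That value moved to -0.40 without PBS 1, -0.08 without PBS 3, -0.50 with depth as a covariate and -0.12 with the acinar term. The call against PBS was close to the threshold: of 20 alternatives 9 kept it and 11 lost it, all with a lower level. It was lost with 1 sample left out for 6 of 9 samples, namely PBS 2 (adjusted p = 0.141), PBS 3 (0.109), HEK-EV 2 (0.0575), MSC-EV 1 (0.131), MSC-EV 2 (0.0708) and MSC-EV 3 (0.0609). Against HEK-EV, S100a4 passed without PBS sample 1 (0.0362) and with only the 6 samples compared (0.0444), array quality weights (0.0191) or depth as a covariate (0.0101). The other 16 of 20 alternatives there stayed short of the threshold. The call against PBS was lost also with FPKM (0.0652), median-of-ratios scaling (0.0544), no filter (0.206) and only the 6 samples compared (0.0727).

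S100a6, the calcyclin gene, was at 588.5, 664 and 772 TPM with PBS, 601, 524 and 629.9 with HEK-EV and 379.7, 467 and 426 with MSC-EV. Every MSC-EV sample was below every other sample. The log2 fold change was -0.67 (SE 0.115, adjusted p = 0.0236) in MSC-EV against PBS, and -0.46 (SE 0.115, adjusted p = 0.048) in MSC-EV against HEK-EV. In HEK-EV against PBS it was -0.20 (adjusted p = 0.999). That value moved to -0.10 without PBS 3, -0.12 without HEK-EV 2, -0.35 with depth as a covariate and -0.07 with the acinar term. Against PBS 13 of 20 alternatives kept the call, and leaving out PBS 2 (adjusted p = 0.102), PBS 3 (0.0786), MSC-EV 1 (0.104) or MSC-EV 2 (0.054) ended it, as did no filter (0.137) and only the 6 samples compared (0.0544). Against HEK-EV 8 of 20 kept it, and those that lost it included the fits without PBS 2 (0.068), HEK-EV 1 (0.125), HEK-EV 2 (0.0642), HEK-EV 3 (0.138), MSC-EV 1 (0.17), MSC-EV 2 (0.0822) and MSC-EV 3 (0.0835), no filter (0.249), FPKM (0.128), median-of-ratios scaling (0.0987) and quantile normalization (0.0792). For both genes a term for pancreatic acinar transcripts, whose list held 0.00133% to 0.00154% of TPM in 5 samples and 0.00409% to 0.331% in HEK-EV 1 and 2 and MSC-EV 1 and 3, ended the call against PBS while the log2 fold change stayed at -0.64 for S100a4 (adjusted p = 0.168) and -0.54 for S100a6 (adjusted p = 0.119). With depth as a covariate the log2 fold changes against PBS were -1.23 and -0.92 (adjusted p = 0.00745 and 0.013).

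**Figure D3:**
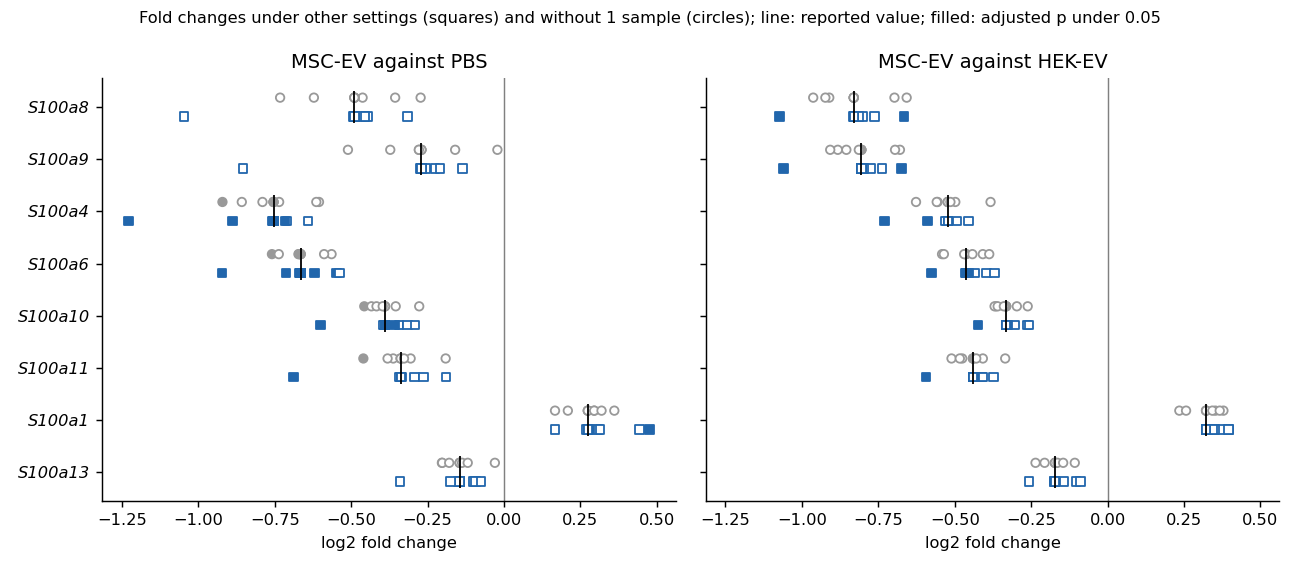
Log2 fold change (x axis) of each gene (y axis) under 11 other settings (squares) and with 1 of 9 samples left out (circles), beside the reported value (line), with filled symbols where the adjusted p is under 0.05. In the panels for MSC-EV against PBS and MSC-EV against HEK-EV no gene crosses 0, and S100a4, S100a6, S100a10 and S100a11 hold filled and open symbols in both.

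S100a10, the light chain partner of annexin A2, was at 259.3, 268 and 333 TPM with PBS, 262, 259.8 and 302 with HEK-EV, and 207, 226 and 219.6 with MSC-EV. S100a11, which binds annexin A1, was at 901, 1032 and 1309 TPM with PBS, 1039.6, 1091 and 1326 with HEK-EV, and 807, 896 and 832 with MSC-EV. All MSC-EV samples of both genes were below all others. The log2 fold change of S100a10 was -0.39 (SE 0.0993, adjusted p = 0.0553) in MSC-EV against PBS and -0.33 (adjusted p = 0.0808) in MSC-EV against HEK-EV. That of S100a11 was -0.34 (SE 0.136, adjusted p = 0.174) and -0.44 (SE 0.136, adjusted p = 0.0878). Neither gene passed the test in any comparison. Of 20 alternatives against PBS, 16 for S100a10 and 17 for S100a11 stayed short of the threshold. Against HEK-EV 16 and 15 of 20 did. Without PBS sample 1 both passed against PBS (adjusted p = 0.0237 for S100a10 and 0.0493 for S100a11). Against HEK-EV, S100a10 passed without PBS sample 3 (0.0363) and S100a11 without PBS sample 1 (0.0477) or 3 (0.0455), and both with only the 6 samples compared (0.0377 and 0.0391). Array quality weights and depth as a covariate also brought both genes past the threshold, against PBS (0.00736 and 0.0322 for S100a10, 0.0251 and 0.0371 for S100a11) and against HEK-EV (0.0288 and 0.03, 0.0231 and 0.0182). Against PBS the log2 fold change of S100a11 was -0.69 with depth, -0.19 with the acinar term and -0.19 without PBS sample 3. That of S100a10 was -0.60 with depth, -0.29 with the acinar term (adjusted p = 0.25) and -0.28 without PBS sample 3 (0.133). In HEK-EV against PBS their log2 fold changes were -0.06 and 0.10.

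S100a1, best known from muscle, where it acts on calcium channels, was the exception in direction. It was at 45.8, 34.8 and 41.8 TPM with PBS, 42.5, 40.9 and 34.6 with HEK-EV, and 54.0, 47.8 and 46.2 with MSC-EV. The lowest MSC-EV sample was just above the highest PBS sample, and the log2 fold changes of 0.27 (SE 0.114, adjusted p = 0.187) and 0.32 (SE 0.114, adjusted p = 0.126) against PBS and HEK-EV did not pass. With array quality weights S100a1 did pass against PBS (0.48, adjusted p = 0.00544), and without PBS 2 it was at 0.17. Against PBS it was also at 0.44 with depth as a covariate (adjusted p = 0.138) and 0.17 with the acinar term (adjusted p = 0.599). S100a13, which takes part in the release of Fgf1 and Il1a, was at 75.5, 75.6 and 96.3 TPM with PBS, 91.3, 83.4 and 76.3 with HEK-EV, and 73.2, 77.6 and 71.3 with MSC-EV. Its groups overlapped in every comparison, and its log2 fold change was -0.15 (adjusted p = 0.444) in MSC-EV against PBS, -0.03 without PBS 3 and -0.34 with depth as a covariate.

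Among the 28 pairs of these genes, the 3 with the most similar pattern over the 9 samples were S100a10 with S100a11, S100a4 with S100a6 and S100a8 with S100a9. Likeness was the root mean square difference of log2(TPM + 1), each gene centred on its own mean, and it came to 0.0889, 0.0978 and 0.113 for these pairs. Each of them is a pair of neighbours on the chromosome, which the choice of the measure did not use but which was noticed after the values were seen. The other neighbours were less alike, as S100a1 and S100a13 were 13th of the 28 at 0.257. The measure is not scaled, so genes that vary little can differ little. Around its own mean S100a10 varied by a root mean square of 0.205 and S100a11 by 0.247. For S100a4 and S100a6 it was 0.37 and 0.309, for S100a8 and S100a9 0.446 and 0.431. S100a1 and S100a13, at 0.192 and 0.138, each varied less than they differed from each other. The pairs share all libraries, so this is a description of the 9 samples. PBS sample 1 was the lowest PBS sample for 7 of the 8 genes and PBS sample 3 the highest for 7.

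**Figure D4:**
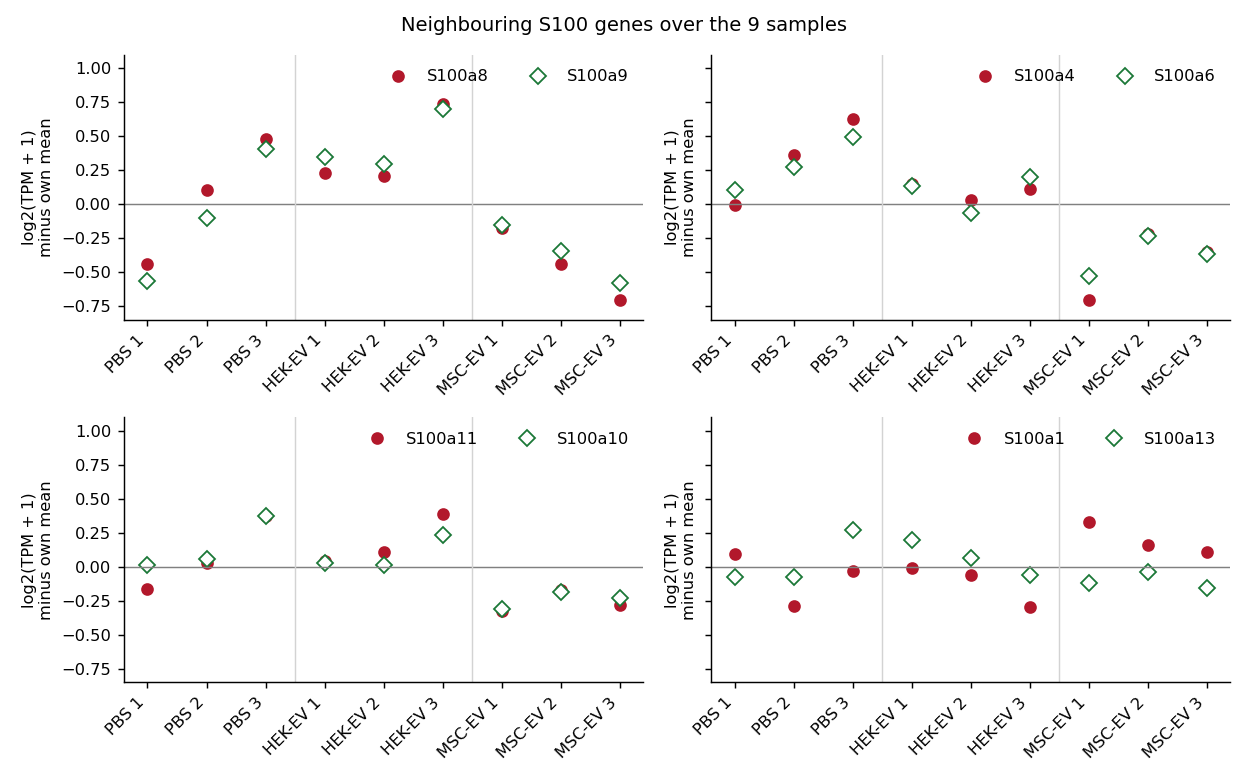
Log2(TPM + 1) minus the gene's own mean (y axis) in the 9 samples (x axis) for 4 pairs of neighbouring genes. S100a8 and S100a9, S100a4 and S100a6, and S100a11 and S100a10 differ less over the 9 samples (root mean square 0.113, 0.0978 and 0.0889) than S100a1 and S100a13 (0.257).

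Outside the family, the nearest of 9655 genes to S100a8 was Cdc42ep2 (difference 0.115), followed by Mcemp1 (0.144) and Dgat2 (0.151). The nearest to S100a9 were Osm (0.119), Slpi (0.13) and Cxcr2 (0.134), a chemokine receptor of neutrophils. For S100a4 they were Rras (0.0782), Napsa (0.0906) and BC035044 (0.104), and for S100a6 Ier5 (0.0843), Cdc42ep3 (0.0845) and Morrbid (0.0853). S100a10 was nearest to Herpud1 (0.0568) and S100a11 to C5ar1 (0.0589), the receptor of complement C5a. These are likenesses over 9 samples and carry no test.

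Lists of cell type markers were read in the same groups, and not all of them differed. Of 13 Ly6C-high monocyte genes, which held none of the S100 genes, all 13 were lower in MSC-EV than in PBS and 8 passed the test (3.25% of all genes passed as lower), and the summed level was 4466 to 5439 TPM with MSC-EV, 7132 to 14086 with PBS and 9062 to 11469.7 with HEK-EV. Of 20 neutrophil genes 18 were tested, and 1 rose and 1 fell against PBS, where 5.11% of all genes passed. Ltf rose (log2 fold change 0.87, adjusted p = 0.0348), and Cd177, which is in both lists, fell (-0.77, adjusted p = 0.031). Of the 18, 12 were lower and 6 higher against PBS, with a median of -0.17. The groups did not overlap for 3 that were lower and 4 that were higher, against 14.9% and 11.2% of all genes. Against HEK-EV, where S100a8 and S100a9 did not overlap, 14 of the 18 neutrophil genes were lower with a median of -0.56 (-0.017 over all genes). The groups did not overlap for 11 that were lower and 2 that were higher, against 17.5% and 12.6% of all genes. There 4 fell, namely Csf3r (-0.35, adjusted p = 0.0402), Cd177 (-0.70, adjusted p = 0.0341), Stfa2l1 (-1.28, adjusted p = 0.0263) and Fpr1 (-0.71, adjusted p = 0.0495), and Ltf rose (1.20, adjusted p = 0.0205). Of all 13820 genes, 608 fell and 209 rose in that comparison. Between HEK-EV and PBS, 14 of the 18 were higher with HEK-EV, as were 61% of all genes, with a median of 0.31 (0.028 over all genes). None was past the test and 5 were at an unadjusted p under 0.05 (3.58% of all genes were). The groups did not overlap for 3 that were higher and 1, Ltf, that was lower (762 and 317 of 13820 genes). The sum of the list was 1463 to 2284 TPM with PBS, 1977 to 3080.2 with HEK-EV and 1544 to 1679 with MSC-EV. Of the neutrophil genes, Mpo and Elane, made in precursors, stayed under 1 TPM in all samples, and no gene of either list was at 0 in all samples. Of 16 lipid-associated macrophage genes 11 rose against PBS, where 257 of 13820 genes rose in all, with a sum of 30266 to 34812 TPM with MSC-EV against 16204 to 20199.6 with PBS. Of 14 biliary genes 10 rose against PBS. Spp1, which is also in the macrophage list, made up most of their sum and did not pass (adjusted p = 0.0773). Without it the biliary sum was 165 to 223 TPM with MSC-EV, 69.5 to 77.7 with PBS and 83.7 to 106 with HEK-EV. All 12 hepatocyte genes were higher in MSC-EV than in PBS, with a median of 0.71, groups that did not overlap for 10 (11.2% of all genes were higher without overlap) and 3 past the test (4 against HEK-EV), and a sum of 724 to 853 TPM against 436 to 527. Of 11 Kupffer genes 10 were lower than with PBS, with a median of -0.45, none past the test and 2 at an unadjusted p under 0.05 (23.0% of all genes were). Of 10 endothelial and stellate genes tested 7 were lower, with a median of -0.72, none past the test and 7 at an unadjusted p under 0.05. The sum of that list was 125.4 to 223.9 TPM with MSC-EV against 267.8 to 324.6 with PBS. With HEK-EV it was 180.6 to 375.8, which overlapped the MSC-EV range. The 12 dendritic genes had a median of 0.02, with none past the test and 6 at an unadjusted p under 0.05. Of 6 lymphocyte genes tested 5 were higher and 1 rose, with a median of 0.45. Of all genes 52.3% were higher, and 257 of 13820 rose. Cd36 is in the macrophage list and among the S100 receptors. The part of these cell types in the S100 levels was not tested.

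**Figure D5:**
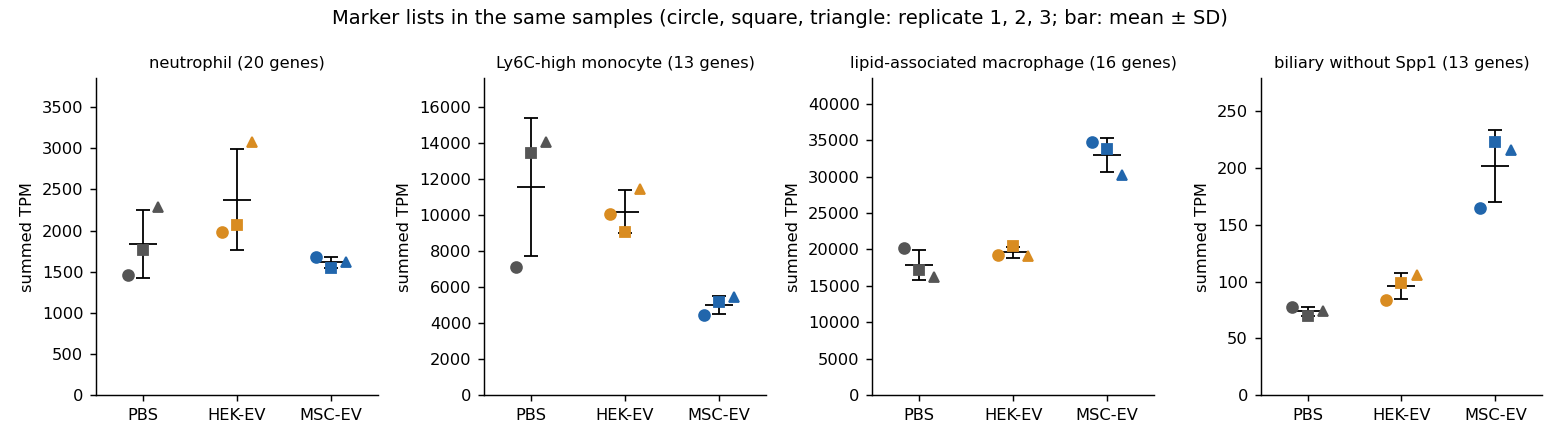
Summed TPM (y axis, from 0) of 4 marker lists in the 9 samples by group (x axis), with the mean and SD as bars. The Ly6C-high monocyte sums of the MSC-EV samples (4466 to 5439) lie below all others, and their neutrophil sums (1544 to 1679) lie within the PBS range. The biliary panel leaves out Spp1.

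The receptors, partners and regulators of S100 proteins were read from lists. Of 8 receptor genes, 4 were higher and 4 lower in MSC-EV than in PBS with a median of -0.01, and none passed (4 had an unadjusted p under 0.05, as did 23.0% of all genes). The smallest p there were for Myd88, the adaptor of Tlr4 (log2 fold change -0.46, adjusted p = 0.0519), and Cd36, a scavenger receptor (0.83, adjusted p = 0.0674). Against HEK-EV 1 of the 8 fell, again Myd88 (-0.55, SE 0.114, adjusted p = 0.03), where 4.4% of all genes fell. The levels of Tlr4 (42.5 to 52.4 TPM) and of Ager (3.27 to 5.20 TPM), the receptor RAGE, overlapped between all groups.

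Of 14 intracellular partners 12 were tested, 8 of them lower in MSC-EV than in PBS and none past the test, with 5 at an unadjusted p under 0.05, against 23.0% of all genes. The smallest p were for Myh9 (-0.30, adjusted p = 0.0597), the myosin that S100a4 binds, and Anxa6 (-0.18, adjusted p = 0.0791). Against HEK-EV, Myh9 alone of the 12 fell (-0.40, SE 0.0793, adjusted p = 0.0267), where 4.4% of all genes fell. Anxa2, the partner of S100a10, was 2.9 to 3.11 times S100a10 in TPM with PBS, 3.07 to 3.25 with HEK-EV and 3.15 to 3.46 with MSC-EV.

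All 6 transcription factors linked to S100a8 and S100a9 were measured. In MSC-EV against PBS 5 were lower, and Cebpb (-0.52, SE 0.1, adjusted p = 0.0273) and Stat3 (-0.35, SE 0.0805, adjusted p = 0.0406) fell, where 5.11% of all genes passed. All 6 had an unadjusted p under 0.05 in each MSC-EV comparison, against 23.0% (PBS) and 23.3% (HEK-EV) of all genes. Against HEK-EV, Stat3 (-0.46, adjusted p = 0.0217) and Cebpd (-0.45, adjusted p = 0.0267) fell and Cebpa rose (0.73, adjusted p = 0.0373). In that comparison 5.91% of all genes passed. In HEK-EV against PBS limma called none of the 6, and none had an unadjusted p under 0.05. Cebpb was at 288, 342 and 364 TPM with PBS, 289, 259.2 and 309 with HEK-EV and 214, 226 and 249 with MSC-EV, so MSC-EV was below all other samples. Cebpa was at 104 to 174 TPM with PBS and at 194 to 212 with MSC-EV, without overlap, but did not pass there (0.63, adjusted p = 0.059).

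Of 9 other S100 genes on the list, 8 were under 1 TPM in all samples, and S100a7l2 and S100z were listed at 0 in each. S100a16 was the 1 tested, at 4.37 to 9.37 TPM, with a log2 fold change of -0.26 (SE 0.246, adjusted p = 0.587) in MSC-EV against PBS and groups that overlapped. Outside the list, S100a2 was at 0.206 TPM in HEK-EV sample 1 and listed at 0 elsewhere, and S100a11-ps was listed at 0 in all samples.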

How the data were processed

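CD11b+ liver cells gave 9 libraries, for which the labels' protocols name Trizol extraction and a TruSeq Stranded mRNA kit. Reads were processed with HISAT2 2.1.0 and StringTie on mm10, per the submitters' processing notes. The deposited tables, 1 per sample, hold per gene the TPM, the FPKM and the coverage (mean read signal), as their headers state. Coverage as deposited by the authors was divided by FPKM as deposited by the authors to give relative depth, which served as a covariate in 1 alternative, and FPKM was used in another. TPM as deposited by the authors sums to 1000000 in each sample. Gene IDs were matched to the RefSeq gene table of GRCm38.p6 (45679 of 45777, 99.79%), and rows of 1 gene were summed. No counts were used, so no counting interval was computed.

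Genes reaching 1 TPM in 3 or more of the 9 samples entered limma 3.58.1 (R 4.3.3) on log2(TPM + 1), with a trend, all 9 samples in 1 fit, no covariate and two-sided tests. Fold changes on this scale understate those of low genes. The test was tested on simulated data. Figures and sums used Python 3.11.15, numpy 2.4.6, pandas 2.3.3 and matplotlib 3.10.9. The members and lists were chosen with earlier results of these data known. All 8 members are named. Of the lists of receptors, partners and factors, genes past the threshold are named, up to 4, or else the 2 of smallest p, and for likeness the nearest genes with a mean of at least 5 TPM. Tlr4, Ager, Anxa2, Spp1, Ptprc, Cd68, S100a2, Lyz2 and Cebpa in MSC-EV against PBS fall outside that rule and were picked once their values were known. Other settings changed the filter (none, or 5 TPM), the pseudocount (0.1), the unit (FPKM) or the scaling (median-of-ratios, quantile), or fitted only 6 samples, quality weights, a replicate block, depth, an acinar term, or all but 1 sample. All 9 samples lay above the planned acinar limit of 0.001% of TPM, so a limit of 0.002% was chosen after seeing the data. The promoter motif search covered the 250 bases before each start, and its extension to 300 bases was added after the matches were seen.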

Additional observations from a re-analysis of the deposited data

How the results depend on the processing

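Of the fold changes of the 8 genes in 3 comparisons under 20 alternatives, 404 kept direction and side of the threshold, 30 passed it, 30 lost it and 16 changed sign, all of those in HEK-EV against PBS, where nothing was called. In MSC-EV against PBS, 706 genes passed, but 11 did with no filter, 77 with only the 6 samples, 4163 with array quality weights, 404 with a replicate block, 1340.0 with depth as a covariate, 21 with the acinar term, 555 with FPKM, 610.0 with median-of-ratios scaling and 5 to 1861 without 1 sample. Of the 8 S100 genes, 2 passed, but 0 with no filter, 1 with FPKM, 1 with median-of-ratios scaling, 0 with the 6 samples, 5 with weights, 4 with depth, 0 with the acinar term, 3 with a replicate block (S100a10 added, adjusted p = 0.0461) and 0 to 4 without 1 sample. In HEK-EV against PBS 0 genes passed, 6 did with no filter and 0 to 2 without 1 sample. In MSC-EV against HEK-EV 817 passed, against 5 with no filter, 459 with FPKM, 512 with median-of-ratios scaling, 1098 with the 6 samples, 2081 with weights, 448 with a replicate block, 1446 with depth and 0 to 1369 without 1 sample. Of the 8 genes 1 passed, against 0 with no filter, FPKM, median-of-ratios scaling, quantile normalization or a replicate block (S100a6, adjusted p = 0.0608), 6 with the 6 samples, 6 with weights, 6 with depth and 0 to 5 without 1 sample. The cause was not tested.

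The sign changes in HEK-EV against PBS were S100a10 with the acinar term (0.0407; -0.13 to 0.0544 without 1 sample), S100a11 with depth (-0.10; -0.0199 to 0.25), S100a1 with weights (0.13) and depth (0.0475; -0.16 to 0.0394), and S100a13 with median-of-ratios scaling (-0.0066), quantile normalization (-0.0045), depth (-0.0839) and the acinar term (-0.0032; -0.0379 to 0.14). The share of called genes that were higher was 36.4% in MSC-EV against PBS and 25.6% in MSC-EV against HEK-EV, but 63.1% and 59.5% with FPKM, 47.2% and 46.3% with median-of-ratios scaling, and 44.5% in the first with quantile normalization and 45.5% in the second. Replicate numbers did not pair the samples: over 9 pairs of the same number the correlation of deviations ran from -0.499 to 0.058.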

Other observations

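The ratio of S100a9 to S100a8 in TPM lay between 1.41 and 1.55 with PBS, between 1.59 and 1.77 with HEK-EV, and between 1.65 and 1.78 with MSC-EV, so every PBS sample lay below every sample that received vesicles. The calprotectin pair made up 39.9% to 47% of the TPM of the 8 genes with PBS, 51.6% to 56.8% with HEK-EV and 42.8% to 54% with MSC-EV. The ratio of S100a4 to S100a6 overlapped between all groups (2.74 to 3.24, 2.78 to 3.16 and 2.61 to 2.98). These ratios were chosen after the values were seen and were not tested.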
